A study of Mus musculus with 47 samples.

Results

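The genes of the cytosolic ribosome were followed in mouse B cell lymphomas driven by the Eµ-myc transgene, which expresses Myc in the B cell lineage, and protected from apoptosis by retroviral Bcl2. Members were all genes with a symbol of the form Rpl or Rps and a digit, Rplp and a digit, or Rpsa, without the Rps6k kinases and without pseudogene names. Each was read on its brightest probe set that the platform annotation gives a single gene. This gave 50 members of 18194 genes, 26 with names of the large and 24 with names of the small ribosomal subunit. The names Rps19bp1 and Rpl7l1 are not those of ribosomal proteins: the first codes for a partner of Rps19, and the second for a protein related to Rpl7.

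The 47 arrays fall into 7 groups, and every group carries both the Eµ-myc transgene and the Bcl2 vector. In the WT group, 14 lymphomas with intact Suv39h1 were measured untreated (native) and after 5 days with 0.05 µg/ml Adriamycin (ADR, doxorubicin, which damages DNA). In the Suv39h1- group, 5 lymphomas deficient in this histone H3K9 methyltransferase were measured in the same way. In the Suv39h1ER group, 3 Suv39h1-deficient cultures carried in addition Suv39h1ER, an estrogen receptor fusion, and were sampled in 3 states: native, with ADR, and with ADR plus the ligand 4-hydroxytamoxifen (4OHT). The labels call 2 groups senescent, treated WT cells and the Suv39h1ER cells given ADR plus 4OHT, and the other groups not. All cells grew on irradiated NIH 3T3 mouse fibroblasts as feeders. No source used here gives the age of the mice. The numbers 5043 and 4936 occur both among the Suv39h1ER cultures and among the WT and Suv39h1- lymphomas, and whether these share a source was not tested.

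The ribosome joins amino acids into protein, and its protein genes are among the most strongly expressed in dividing cells. Myc raises their transcription together with that of ribosomal RNA. Their mRNAs begin with a 5′ terminal oligopyrimidine (TOP) tract, a cytosine followed by further pyrimidines, through which mTOR and the RNA-binding protein Larp1 govern translation. Arrays read mRNA levels and not that translational step. When ribosome assembly fails, free Rpl5 and Rpl11 bind Mdm2, the ligase that degrades p53, which links ribosome production to the p53 pathway.

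The sequence around the start of these genes is shown because the TOP tract is the feature for which the group is known. RefSeq promoter sequences (build GRCm38.p6, 250 bases before to 50 bases after the annotated start) were matched to 44 of the 50 members. Within the window from 40 bases before to 20 bases after the start, the longest unbroken run of C and T on the gene's strand is in capitals in the following windows, written 5′ to 3′. Rpl7a, Rps18 and Rpl14 were lower in WT under ADR, Rps6 is the member that mTOR signalling phosphorylates through its kinase, and Rpl39l was the member that rose.
Rpl7a, chr2:26910767-26910826, plus strand: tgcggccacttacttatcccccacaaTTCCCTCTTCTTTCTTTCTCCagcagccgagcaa
Rps18, chr17:33955646-33955705, minus strand: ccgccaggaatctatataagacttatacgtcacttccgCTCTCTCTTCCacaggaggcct
Rpl14, chr9:120571477-120571536, plus strand: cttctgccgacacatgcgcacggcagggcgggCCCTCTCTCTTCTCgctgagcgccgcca
Rps6, chr4:86857348-86857407, minus strand: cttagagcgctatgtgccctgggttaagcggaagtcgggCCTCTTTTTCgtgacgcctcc
Rpl39l, chr16:10170188-10170247, plus strand: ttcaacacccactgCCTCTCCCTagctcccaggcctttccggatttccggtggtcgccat

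In Rpl7a the run had 21 bases and in Rps6 10 bases, and both spanned the annotated start. In Rpl39l the run had 9 bases and ended before the start. A run of 8 or more pyrimidines in this window was present in 25 of the 44 members (56.8%), beside 27.2% of the 27025 genes in the table. Among the members it was present in 5 of 10 that were lower in WT under ADR and in 20 of 34 that were not. The printed windows are examples, and other members lower in WT had shorter runs. The longest had 7 bases in Rpl11 and Rps15, 6 in Rpl6 and Rps3 and 5 in Rpsa. The following 3 short motifs were searched on both strands of the whole 300 bases. CCGGAAG, the core bound by ETS factors, was present in 21 of 44 members (47.7%), beside 9.93% of all genes. AAGATGG, the core of the YY1 motif, which can overlap the former by its first 3 letters, was present in 8 of 44 (18.2%), beside 7.28%. CACGTG, the E box that Myc and other factors can bind, was present in 4 of 44 (9.09%), beside 8.09%. These counts describe letters in a window and not bound sites.

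Values are log2 levels after RMA, the usual summary of Affymetrix probe sets. They are relative between arrays, so that a change shared by all RNA of a cell is not visible. Of the members, 36 had a mean of 12 or more over all arrays, near the top of the range. The highest value, 14.997, was on the ADR array of SuvER-4936. The median array maximum of each group lay between 14.23 and 14.32. On the native array of WT 2949 the maximum, 14.31, was that of Rpl37a. The other 14 members lay between 2.88 and 10.6, and this line at 12 was drawn after the levels were seen. For 9 of these 14 (among them Rps6, Rps16, Rps25, Rps27, Rpl12, Rpl14 and Rpl27a) a brighter probe set lists several genes, so these members rest on a dim probe set. Whether signal near the top of the range compressed differences was not tested.

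Array medians ran from 4.07 to 4.43, with Suv39h1- lymphoma 1032 under ADR the lowest. Of 9 measured B cell markers, Cd79a and Cd74 were higher in native WT than in native Suv39h1- cells and 7 were not called. Cd79a ran from 9.27 to 10.5 in native WT and from 6.73 to 8.74 in native Suv39h1- arrays, Cd79b from 10.4 to 11.4 and from 9.78 to 11.5, and Pax5 from 4.82 to 5.34 and from 4.71 to 5.40. The T cell marker Cd3e stayed between 4.76 and 5.36 on all WT arrays. Likeness between cultures was read on 33 probe sets (immunoglobulin V genes, Xist, Y-linked genes), on which the arrays of WT 2949, 5043, 5766 and 6054 correlated at 0.882 to 0.966 (Spearman) and those of Suv39h1- 7890 and 9250 at 0.824 to 0.885. Arrays of the same culture had a median of 0.932 and other pairs a median of 0.796, with a highest of 0.967. The labels name these as separate lymphomas, and p-values are too small if some are not. In bulk samples, fewer cells of a type and less RNA per cell cannot be told apart. The Suv39h1 probe sets were not analysed here, so the genotype was not checked by its own transcript.

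The ribosomal protein genes as a group stayed within a narrow band in all 7 groups. Levels near the top of the range are alike on all arrays, with 99th percentiles of 11.60 to 11.78 on single arrays. The narrow band can thus not be read as a trait of these genes. The median over the 50 members was 13.56 ± 0.03 (SD, n = 14) in WT cells before treatment. Under ADR it was 13.46 ± 0.10 (SD, n = 14). It was 13.53 ± 0.05 (SD, n = 5) in native Suv39h1- cells and 13.52 ± 0.07 (SD, n = 5) under ADR. In the Suv39h1ER cultures it was 13.52 ± 0.03 (SD, n = 3) native, 13.47 ± 0.07 (SD, n = 3) under ADR and 13.42 ± 0.04 (SD, n = 3) with 4OHT. The spread between WT arrays was wider after ADR, where the lowest stood at 13.28 and the highest at 13.59, and the groups overlapped.

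**Figure D1:**
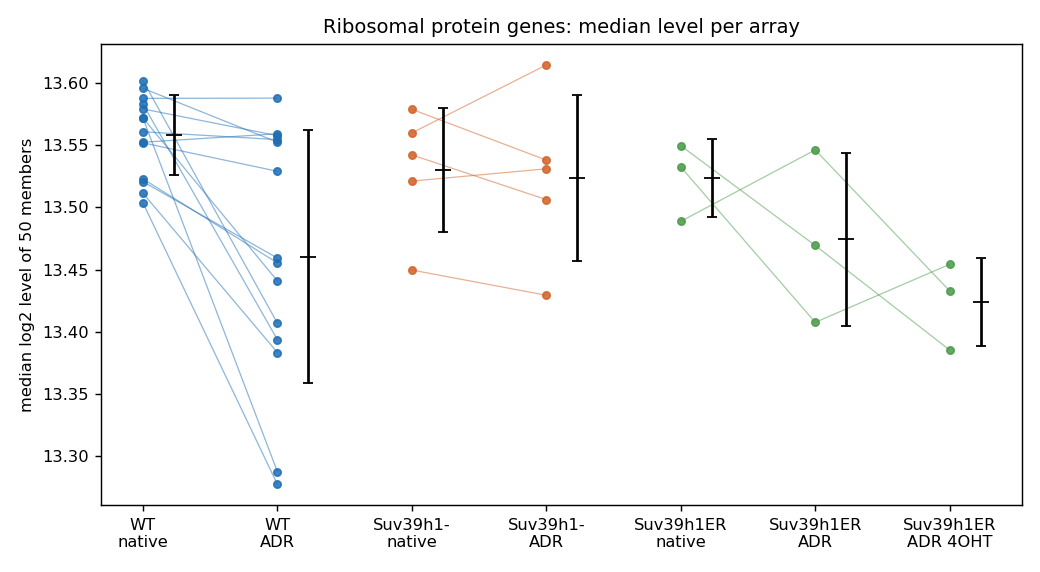
Median log2 level of the 50 members on each of the 47 arrays (vertical axis) in the 7 groups (horizontal axis); thin lines join arrays of a culture, and black bars give the mean ± SD. Native WT arrays lie between 13.50 and 13.60, and WT arrays under ADR spread from 13.28 to 13.59.

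In WT lymphomas, ADR was followed by small falls in part of the ribosomal protein genes and by a large rise of a single one. Of the 50 members 11 were lower and 1 was higher at a Benjamini-Hochberg adjusted p under 0.05 (limma). Among all 18194 genes 14.1% were lower and 16.1% higher. Lower calls were thus somewhat more frequent among the members than in the background and higher calls less so, and neither difference was tested. This background, like the others given below, holds genes of all levels, dim ones included, while 36 of the 50 members are bright. A share among equally bright genes was not taken, so the shares do not compare like with like. The median member change was -0.06, beside -0.0002 over all genes. A change below 0 was found in 40 of 50 members and in 9112 of 18194 genes. Leaving out Rpl14, which is described below, the called falls lay between 0.11 and 0.20 on the log2 scale.

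The ribosomal protein with the steadiest fall was Rpl7a, a large-subunit protein. Its level ran from 13.61 through a median of 13.75 to 13.80 in native WT cells and from 13.43 through 13.57 to 13.65 under ADR. The groups overlapped, yet each of the 14 lymphomas was lower under ADR. The change was -0.18 (SE 0.04, adjusted p = 0.000357), a 1.13-fold fall.

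Rpl11, the Mdm2-binding protein, ran from 13.39 through 13.49 to 13.64 in native WT cells and from 13.07 through 13.30 to 13.60 under ADR. It too was lower in 14 of 14 lymphomas, by as little as 0.006 in 1467. The change was -0.19 (SE 0.04, adjusted p = 0.000719). Rps7, another protein that can bind Mdm2, had a change of -0.03 (SE 0.04, adjusted p = 0.676) and did not pass. Rpl5, Rpl23 and Rps27a were not analysed here, since no probe set named them alone.

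Rpl22, a large-subunit protein known for its role in lymphocyte development, ran from 13.35 through 13.43 to 13.58 in native WT cells and from 13.16 through 13.26 to 13.45 under ADR. It was lower in 14 of 14 lymphomas, with a change of -0.16 (SE 0.04, adjusted p = 0.00118). Its paralog Rpl22l1 can take its place in the ribosome. In native WT cells Rpl22l1 ran from 12.27 to 12.92 and under ADR from 11.97 to 13.04, with a change of -0.14 (SE 0.08, adjusted p = 0.234) that differed in sign between lymphomas.

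Rpsa, a small-subunit protein also known as the laminin receptor, ran from 13.73 through 13.90 to 14.03 in native WT cells and from 13.43 through 13.68 to 13.90 under ADR. It was lower in 12 of 14 lymphomas, and its change was -0.20 (SE 0.05, adjusted p = 0.00118). Among the other small-subunit members Rps3, at the mRNA entry of the ribosome, fell by 0.14 (adjusted p = 0.0133) and Rps15 by 0.12 (adjusted p = 0.0359). Rps18 fell by 0.11 with an adjusted p of 0.0499, at the edge of the threshold. With the mean of its 6 probe sets in place of the brightest, the change of Rps18 was 0.0005, and in 10 of 15 leave-one-out fits it no longer passed.

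Of the large subunit, Rpl8 fell by 0.15 (adjusted p = 0.00825), Rpl6 by 0.14 (adjusted p = 0.00667) and Rpl4 by 0.12 (adjusted p = 0.0132). Rpl8 was lower in 12 of 14 lymphomas, Rpl6 in 13 and Rpl4 in 12. The stalk, which recruits translation factors, was read on Rplp0 and Rplp2. Their changes were -0.03 each (adjusted p = 0.602 and 0.638), with Rplp0 between -0.13 and 0.08 and Rplp2 between -0.18 and 0.09 over the 14 lymphomas.

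Rpl14, a large-subunit protein, had the largest change among the members that were lower. Its single-gene probe set was dim, from 8.42 through 8.78 to 9.12 in native WT cells and from 7.15 through 7.99 to 8.81 under ADR. It was lower in 13 of 14 lymphomas, by 0.83 in the mean (SE 0.13, adjusted p = 2.02e-05), and in 1467 it stood at 8.55 before and 8.57 after. On 5 brighter probe sets that name Rpl14 beside other genes, with means of 12.7 to 13.4, the changes were -0.27 to -0.22, and all 5 were lower in a fit over all probe sets. The direction was thus shared between these probe sets, and the size was not.

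Members that are often studied on their own did not pass in WT. Rps6 had a change of -0.22 (adjusted p = 0.0840) on its brightest single-gene probe set, with -0.05 (adjusted p = 0.441) on its brightest probe set of several genes and 0.38 on its other single-gene one. Rps19, which is mutated in Diamond-Blackfan anaemia, stood at -0.08 (adjusted p = 0.254). Rpl10a had a change of -0.09 (adjusted p = 0.120) and Rps25 one of -0.003 (adjusted p = 0.986). Rpl38, required for translation of Hox mRNAs, had a change of 0.01 (SE 0.03, adjusted p = 0.909) and varied only from -0.07 to 0.18 between lymphomas. Rpl7 was at -0.09 (adjusted p = 0.0765), Rps4x at -0.05 (adjusted p = 0.291) and Rps27 at -0.22 (adjusted p = 0.124). The probe set of Rps27 was dim, and a brighter one of several genes stood at -0.03 (adjusted p = 0.771, limma over all probe sets).

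**Figure D2:**
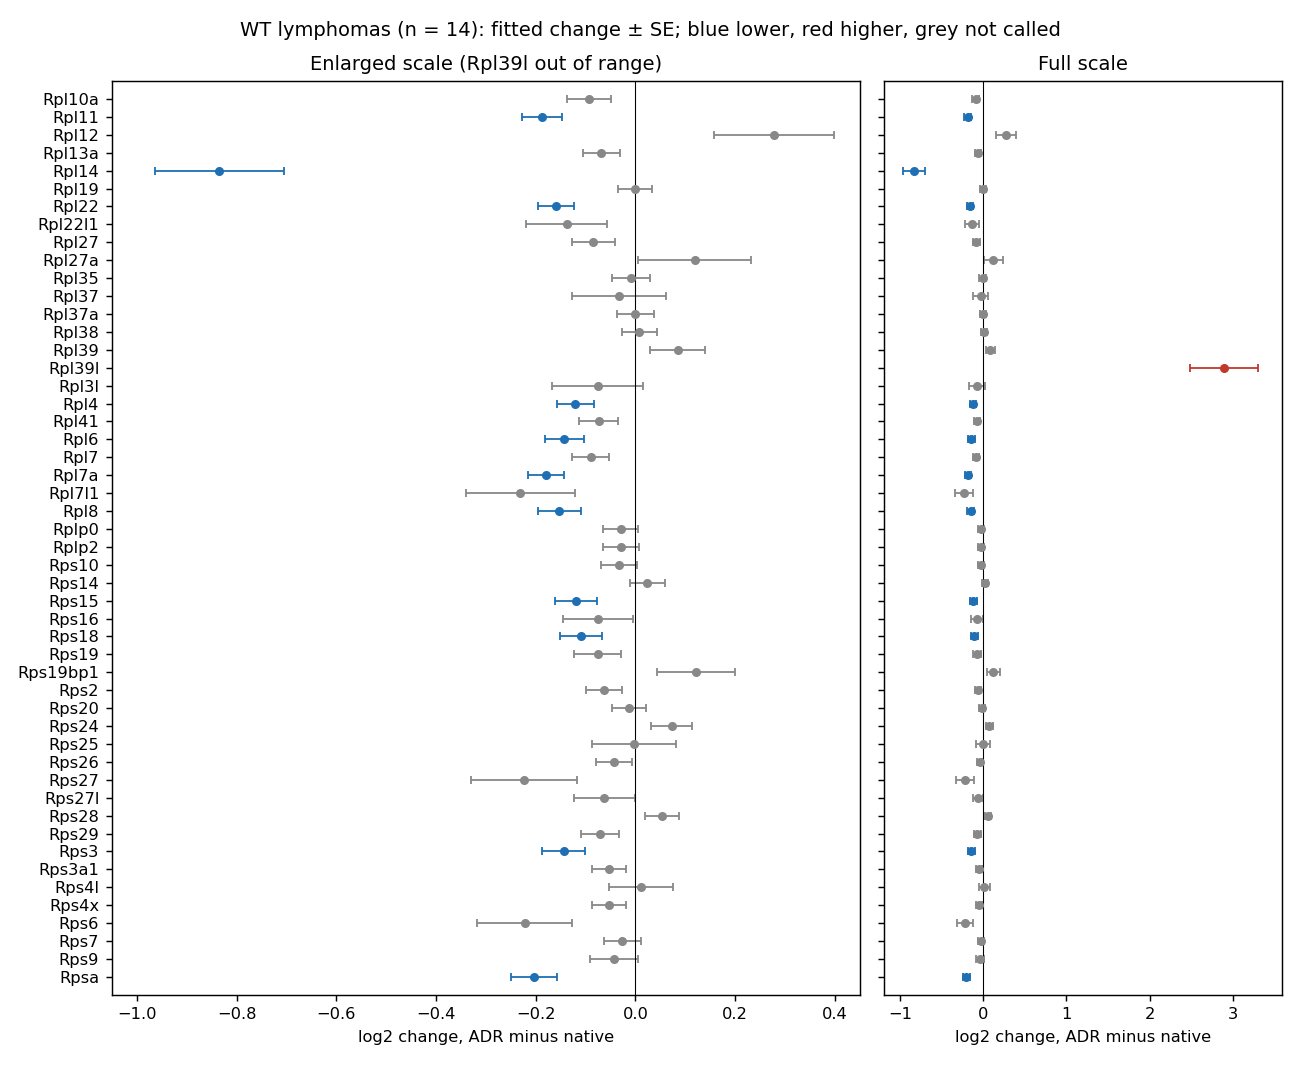
Fitted log2 change under ADR in the 14 WT lymphomas (horizontal axis) for each of the 50 members (vertical axis), with SE as bars; the left panel is enlarged and the right one shows the full scale. The 11 members lower at adjusted p under 0.05 are blue, and Rpl39l, at 2.90, is the single one in red.

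The 14 WT lymphomas did not move alike. The median member change was lowest in 5560, at -0.21 with 45 of 50 members below 0, and highest in 1570, at 0.07 with 16 below 0. It was above 0 in 1467, 1570 and 9583 and below 0 in the other 11. The mean change of the proliferation markers was -1.90 in 1467, -2.63 in 1570 and -1.63 in 5560. The fibroblast marker change was 0.03 in 1467, 0.92 in 1570 and 4.09 in 5560. The treated array of 1570 stood apart by a sign of RNA quality, the log2 signal of Gapdh at its 3′ end minus that at its 5′ end. This was 0.907 there and 0.437 on the treated array of 6054, while the median of treated WT arrays was 0.109 and native WT arrays ran from -0.02 to 0.17. Without 1570 the same 11 members were lower and Rpl39l higher. Lymphoma 403, with the largest fibroblast change of 4.56, had a median member change of -0.01.

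**Figure D3:**
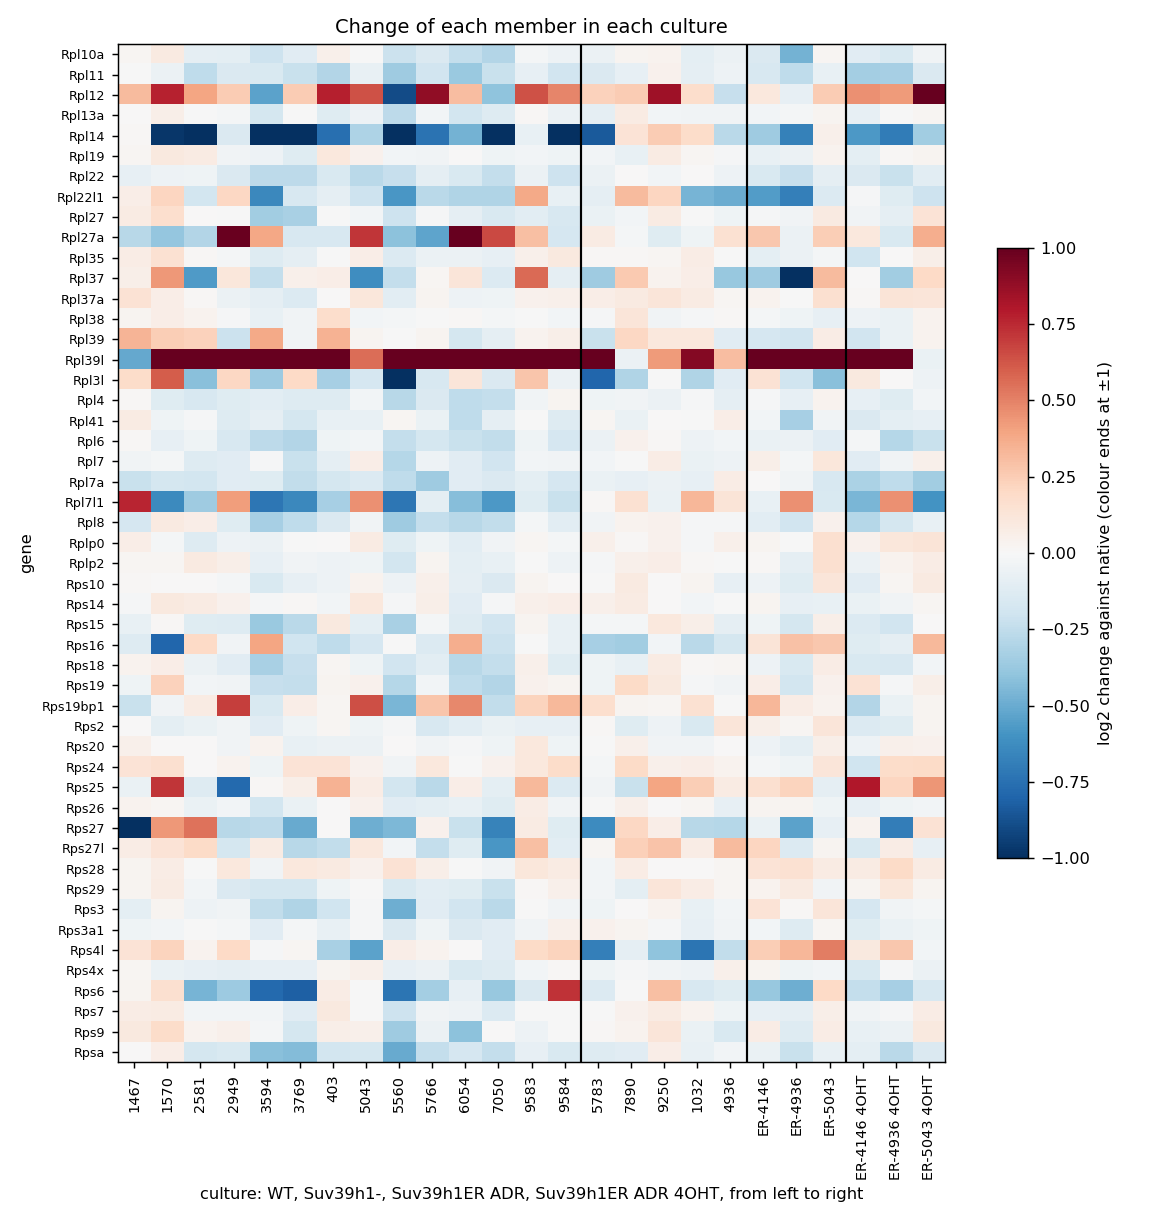
Log2 change against native of each member (vertical axis) in each culture (horizontal axis), from left to right 14 WT, 5 Suv39h1-, 3 Suv39h1ER under ADR and the same 3 under ADR with 4OHT; the colour scale ends at ±1. Most members are pale throughout, Rpl39l is dark red in most WT columns, and dim members such as Rpl27a, Rps6 and Rps27 vary in both directions.

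Rpl39l, a paralog of Rpl39 known for its expression in testis, was the exception. In native WT cells it ran from 4.24 through 5.05 to 6.402 and under ADR from 5.89 through 8.03 to 11.4. It was higher in 13 of 14 lymphomas, with a change of 2.90 (SE 0.41, adjusted p = 6.68e-06). The rise was 6.13 in 403, from 5.29 to 11.42, and 5.93 in 5560, from 4.77 to 10.70. In 1467 the level was 6.402 before and 5.89 after ADR. Its parent Rpl39, on a dim probe set, ran from 5.34 through 5.66 to 5.88 and from 5.56 through 5.73 to 5.99, a change of 0.08 (adjusted p = 0.279).

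**Figure D4:**
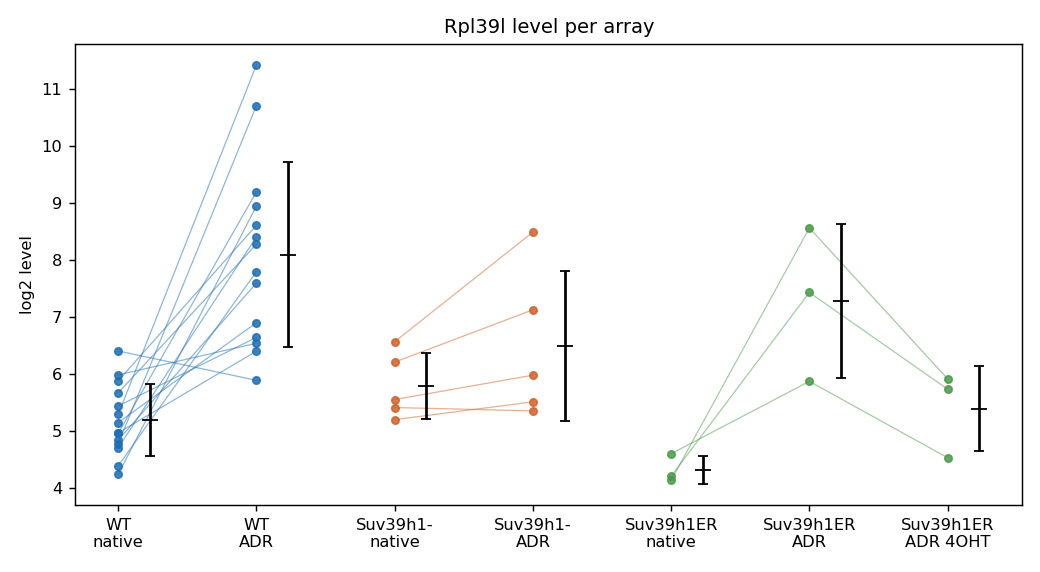
Log2 level of Rpl39l on each array (vertical axis) in the 7 groups (horizontal axis); thin lines join arrays of a culture, and black bars give the mean ± SD. WT arrays under ADR spread from 5.89 to 11.4, while native WT arrays lie between 4.24 and 6.402.

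In Suv39h1- lymphomas Rpl39l went from 6.56 to 8.49 in 5783, from 5.41 to 5.35 in 7890, from 5.55 to 5.98 in 9250, from 6.21 to 7.12 in 1032 and from 5.20 to 5.51 in 4936. The groups overlapped, and the change of 0.70 (SE 0.69, adjusted p = 0.776) did not pass. In the Suv39h1ER cultures it went from 4.21 native to 7.43 under ADR and 5.73 with 4OHT in SuvER-4146, and from 4.13 to 8.56 and 5.91 in SuvER-4936. In SuvER-5043 it went from 4.60 to 5.87 and 4.53. Each of the 3 was higher under ADR than native, with no overlap of the groups and a change of 2.97 (SE 0.89, adjusted p = 0.147). Each was lower with 4OHT than under ADR alone, with a mean change of -1.89 (SE 0.89, adjusted p = 0.385) and overlap. Neither passed.

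Markers of fibroblasts moved with Rpl39l. Of 15 measured fibroblast markers, among them the collagen Col1a1 and fibronectin (Fn1), 14 were higher in WT under ADR, and their mean level per array ran from 4.17 to 5.36 in native and from 5.06 to 9.15 in treated WT cells. It ran from 4.46 to 5.90 and from 4.53 to 6.56 in native and treated Suv39h1- cells. In the Suv39h1ER cultures it ran from 3.86 to 4.41 native, from 4.70 to 6.18 under ADR and from 4.31 to 5.03 with 4OHT. No marker can be called absent, since detection calls were not used here. The fibroblast marker change was largest in 403 and 5560, the lymphomas with the largest rises of Rpl39l, and was 0.03 in 1467, where Rpl39l was not higher. In Suv39h1- 5783, with the largest change of Rpl39l of its group, it was 0.66. With the fibroblast change as a covariate the fitted change of Rpl39l was 0.28 (adjusted p = 0.511), a value at a fibroblast change of 0, the low end of the range.

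**Figure D5:**
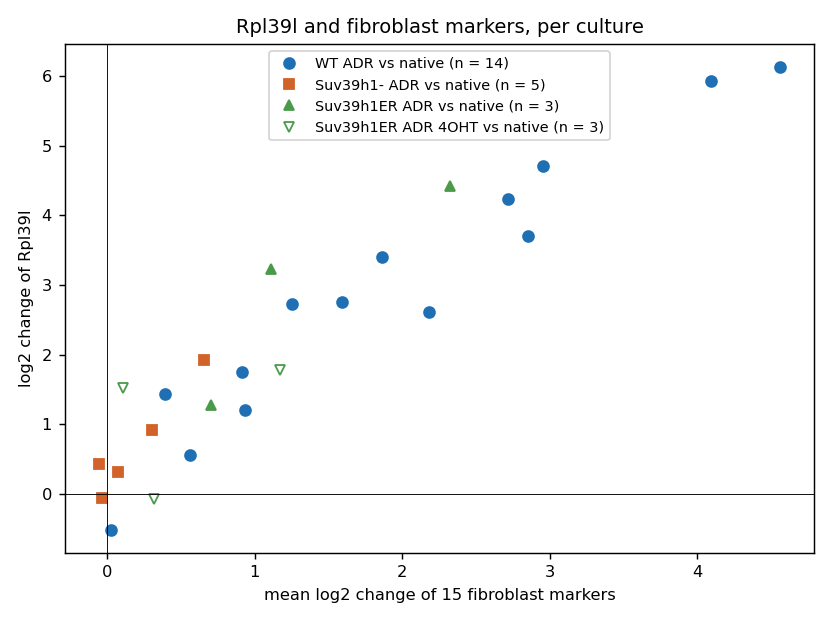
Log2 change of Rpl39l (vertical axis) against the mean log2 change of 15 fibroblast markers (horizontal axis), 1 point per culture and treatment; filled symbols are ADR against native and open triangles ADR with 4OHT against native. Rpl39l changes of 5.93 and 6.13 lie at fibroblast changes of 4.09 and 4.56.

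In the same covariate fit none of the 50 members was called in either direction, and the share of all genes called in it is not given here. The median member change there was -0.002, Rpl7a stood at -0.15 (adjusted p = 0.180), Rpl22 at -0.14 (adjusted p = 0.257) and Rpl11 at -0.08 (adjusted p = 0.529). The changes of Rpl7a and Rpl22 were close to those without the covariate, while that of Rpl11 was smaller. The other members lower in WT also had smaller falls here. Rpl14 stood at -0.32, Rpl6 at -0.10, Rpl8 at -0.08, Rps15 at -0.08 and Rps18 at -0.06. Rpl4 stood at -0.06, Rpsa at -0.06 and Rps3 at -0.008. A lost call can come from a smaller change or from a less precise estimate, and these were not told apart. Macrophage markers rose too, 9 of 12 in WT, all 9 measured proliferation markers fell, with a median change of -2.31, and B cell markers were lower in 3 of 9. The T cell markers gave no call among 4. The part of any of these in the small falls was not tested beyond this fit.

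None of the further paralogs and like-named genes was called in WT or in Suv39h1- cells. Rps27l, a paralog of Rps27 known as a p53 target, ran from 11.98 through 12.12 to 12.27 in native WT cells and from 11.69 through 11.98 to 12.44 under ADR. Its change was -0.06 (SE 0.06, adjusted p = 0.520), with 6 of 14 lymphomas higher. In Suv39h1- cells Rps27l went from 12.26 to 12.28 in 5783, from 12.11 to 12.35 in 7890, from 12.21 to 12.49 in 9250, from 12.30 to 12.37 in 1032 and from 11.76 to 12.08 in 4936. It was higher in 5 of 5, with a change of 0.18 (SE 0.10, adjusted p = 0.552) that did not pass. The difference between the responses of both genotypes was -0.25 (adjusted p = 0.264). Rpl3l, the muscle form of Rpl3, and Rps4l were dim, at means of 3.19 and 3.30, and their WT changes of -0.08 and 0.01 did not pass. Rpl7l1 had a WT change of -0.23 (adjusted p = 0.118) and another probe set at 0.41. Rps19bp1 was at 0.12 (adjusted p = 0.282).

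In the 5 Suv39h1- lymphomas no member was called after ADR. The background was close to that: 0% of all genes were called higher and 0.011% lower. A single member, Rps4l, had an unadjusted p under 0.05, beside 1885 of 18194 genes. It went from 4.17 to 3.49 in 5783, from 3.29 to 3.20 in 7890, from 3.83 to 3.42 in 9250, from 3.10 to 2.37 in 1032 and from 3.72 to 3.48 in 4936, a change of -0.43 (SE 0.11, adjusted p = 0.133) at the bottom of the signal range. The median member change was -0.002, with 27 of 50 below 0, beside a median of -0.04 and 10587 of 18194 below 0 over all genes. Rpl7a was at -0.04 (SE 0.06, adjusted p = 0.853), Rpl11 at -0.07 (SE 0.07, adjusted p = 0.789), Rpl22 at -0.03 (adjusted p = 0.930) and Rpsa at -0.05 (adjusted p = 0.862).

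The responses of both genotypes were then set against each other in the same fit. No member was called as different between WT and Suv39h1- lymphomas in its response to ADR. An unadjusted p under 0.05 was found in 4 of 50 members and in 3424 of 18194 genes. Of all genes 0.187% were called with a higher and 0.154% with a lower response in WT. The difference was -0.13 (SE 0.07, adjusted p = 0.293) for Rpl7a, -0.12 (SE 0.08, adjusted p = 0.403) for Rpl11 and -0.72 (SE 0.25, adjusted p = 0.136) for Rpl14. For Rpl39l it was 2.20 (SE 0.80, adjusted p = 0.150) and for Rps4l 0.44 (SE 0.12, adjusted p = 0.0901). The falls called in WT are thus not shown to be absent in Suv39h1- cells.

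Comparing the genotypes directly asked where their levels differed before and after treatment. The Gapdh 3′ minus 5′ signal differed with genotype as well, from -0.02 to 0.17 in native WT against 0.16 to 0.37 in native Suv39h1- arrays, and its part in these comparisons was not tested. In native cells no member was called, beside 0.951% of genes higher and 0.137% lower in WT. An unadjusted p under 0.05 was found in 2 of 50 members and in 1735 of 18194 genes. Rpl27a had the smallest p: it ran from 6.58 through 7.03 to 7.63 in WT, and stood at 7.42, 7.61, 7.74, 7.44 and 7.40 in the Suv39h1- lymphomas 5783, 7890, 9250, 1032 and 4936. The difference was -0.45 (SE 0.12, adjusted p = 0.0728) with overlap, on a dim probe set.

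Under ADR, 1 member was lower and none higher in WT than in Suv39h1- cells, beside 6.3% of all genes lower and 6.3% higher. This was Rpl14, at 7.15 through 7.99 to 8.81 in WT and at 8.26, 9.15, 9.57, 8.61 and 8.55 in the Suv39h1- lymphomas in the order above. The groups overlapped, and the difference was -0.88 (SE 0.25, adjusted p = 0.0260), on a dim probe set. The 5 brighter probe sets that name Rpl14 beside other genes were not called here, in a fit over all 45101 probe sets. They belong to 79 such bright probe sets of ribosomal proteins, none of them called, beside 2009 lower and 2390 higher among all. Without lymphoma 7890 or without 9250 Rpl14 was not called, and with these alike lymphomas counted once the count was 0. Without 1032, whose array median was lowest, Rps6 was called lower as well. Centring each array on its median moved the median of all genes in this comparison by -0.11, turned the calls over all genes from 50% to 21.7% higher, and gave 11 members lower, beside 2292 of 18194 genes.

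The Suv39h1ER cultures ask what activating Suv39h1 under ADR does. No array had 4OHT without ADR or in cells without Suv39h1ER. Activation of the fusion and other effects of 4OHT can thus not be told apart. Under ADR alone against native no member was called, beside 0.0879% of genes higher and 0.0385% lower. An unadjusted p under 0.05 was found in 4 of 50 members and in 2240 of 18194 genes. Rpl22l1 went from 12.49 to 11.93 in SuvER-4146, from 12.72 to 12.03 in SuvER-4936 and from 12.48 to 12.34 in SuvER-5043, with no overlap and a change of -0.46 (SE 0.18, adjusted p = 0.273). The median member change was -0.02, beside 0.01 over all genes. In single cultures the member median was -0.01 in SuvER-4146, -0.08 in SuvER-4936 and 0.04 in SuvER-5043.

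With 4OHT, ADR against native gave 1 member lower and none higher, beside 1.57% of genes lower and 1.38% higher. This member was Rpl7a, which went from 13.73 to 13.41 in SuvER-4146, from 13.70 to 13.45 in SuvER-4936 and from 13.77 to 13.42 in SuvER-5043. The groups did not overlap, and the change was -0.31 (SE 0.08, adjusted p = 0.0307). It was not called when any of the 3 cultures was left out, and over the leave-one-out fits the change lay between -0.33 and -0.29. Rpl11 went from 13.52 to 13.18 in SuvER-4146, from 13.50 to 13.16 in SuvER-4936 and from 13.42 to 13.28 in SuvER-5043, again without overlap, and its change of -0.27 (SE 0.09, adjusted p = 0.0873) did not pass. Rpsa was at -0.17 (adjusted p = 0.424) and Rpl22 at -0.16 (adjusted p = 0.317). The median member change was -0.05, with 33 of 50 below 0, beside a median of -0.009 and 9374 of 18194 below 0 over all genes.

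Adding 4OHT to ADR was also compared with ADR alone, which is the step that switches the label to senescent. No member was called, beside 0.044% of genes higher and 0.0989% lower. An unadjusted p under 0.05 was found in 4 of 50 members and in 2268 of 18194 genes. Rpl7a went from 13.73 to 13.41 in SuvER-4146, from 13.67 to 13.45 in SuvER-4936 and from 13.61 to 13.42 in SuvER-5043. These groups did not overlap, and the change was -0.25 (SE 0.08, adjusted p = 0.169). Both comparisons with 4OHT share the same treated arrays. Proliferation markers changed by -0.80 (median) between ADR with and without 4OHT, with none of 9 called.

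Other genes of the translation machinery were read as lists. Of 12 measured translation factors and other genes with TOP mRNAs, 8 were lower and none higher in WT under ADR, beside 14.1% and 16.1% of all genes, with a median change of -0.23. Among them the elongation factors Eef2 and Eef1d fell by 0.22 and 0.39, the initiation factor Eif4b by 0.39 and the histone chaperone Nap1l1 by 0.496. The initiation factor subunits Eif3e, Eif3f and Eif3h fell by 0.34, 0.22 and 0.25. Eef1a1, which delivers tRNA to the ribosome, and the poly(A)-binding protein Pabpc1 had changes of 0.005 and -0.005. In Suv39h1- cells none of the 12 was called and the median was -0.02, and the difference between the responses gave no call either.

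Of 11 measured genes of the Larp1 and mTOR branch, the cap-binding protein Eif4e was lower, by 0.34 (adjusted p = 0.000753), and the mTOR inhibitor Tsc2 was higher, by 0.31 (adjusted p = 0.00500). A single call of 11 in each direction is not above the 14.1% lower and 16.1% higher among all genes. Larp1 had a change of -0.14 (adjusted p = 0.406), Mtor of -0.24 (adjusted p = 0.317) and Rptor, the partner of mTOR in its first complex, of 0.04 (adjusted p = 0.766). Fau, a small-subunit protein outside the naming rule, was at -0.03.

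Mitochondrial ribosomal proteins, which build the separate ribosome of mitochondria, were read beside them. Of 76 measured, 48 were lower and none higher in WT under ADR, where 14.1% of all genes were lower. The median change was -0.29, beside -0.06 and 11 of 50 for the cytosolic members. In Suv39h1- cells none was called and the median was 0.03. In the Suv39h1ER cultures the median was 0.11 under ADR with no call and -0.27 with 4OHT, with 8 of 76 lower, beside 1.57% of all genes. The difference between both families was not tested, and 36 of the 50 cytosolic members lie near the top of the signal range.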

How the data were processed

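RNA was measured on 47 Affymetrix arrays from 22 cultures. The deposited log2 values are the authors' RMA output; the submitters' processing notes name oligo and R 3.5.0. The build and any batch step are not given in the sources used here. Replicates are separately numbered lymphomas or cultures in the labels, and p-values measure the spread between these samples. Comparisons within cultures share 1 estimate of that spread over all groups, to which the 14 WT lymphomas contribute most. The SE and p-values of the 5 Suv39h1- lymphomas and the 3 Suv39h1ER cultures thus do not measure the spread of those samples alone.

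Of 45101 probe sets 34958 have 1 gene symbol in the platform annotation, 932 several and 9211 none. Each gene was read on its brightest probe set by mean level, with no filter on dim genes. Symbols were taken from RefSeq through the Entrez number for 34754 probe sets, which changed no member's symbol. Differences were tested with limma 3.58.1 (lmFit, eBayes, two-sided) in R 4.3.3. Comparisons within cultures used 1 fit of 47 arrays with 22 cultures as fixed blocks, since the series' design describes matched pairs. Arrays of a culture deviated together (correlation above 0.1) in 10 of 14 WT, 5 of 5 Suv39h1- and 2 of 9 Suv39h1ER pairs. Genotypes were compared over 19 arrays without a block. Calls are at a Benjamini-Hochberg adjusted p under 0.05 over 18194 genes.

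The members and lists were chosen with earlier results of these data known. Genes were named by rule: all called members, and a list of paralogs and their parents, Mdm2-binding, stalk and often-studied members; Rpl12, Rpl27a, Rps2 and Rps16, as well as single members of the other lists, were named after their values were seen. Rpl3, Rpl10, Rpl10l, Rpl36a, Rpl36al and Rplp1 had no single-gene probe set and were not analysed here. The fit was tested on simulated data. Alternatives changed the normalization, the probe set rule, a filter on dim genes, array weights, the block, single replicates and the fibroblast covariate. The number of arrays limits the precision.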

Additional observations from a re-analysis of the deposited data

Results flagged for a closer look

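In all, 2 values stood far from the other 4 lymphomas of their group, by the share of the group's range that lies between the value and its neighbour. The change of Rpl7a in Suv39h1- lymphoma 4936 was 0.0708, above the next highest of -0.06 (gap share 0.861). The level of Rps4l in Suv39h1- lymphoma 1032 under ADR was 2.37, below the next lowest of 3.20 (gap share 0.742), on the array with the lowest median. A total of 29 sets of 5 values were examined, and chance sets about 1 in 20 apart.

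In 2 members every Suv39h1- lymphoma moved one way under ADR and every Suv39h1ER culture the other, without 4OHT. Rps16 changed by -0.2303 in Suv39h1- lymphomas and by 0.23 in Suv39h1ER cultures. Rps4l changed by -0.4299 and by 0.36. These differences were not tested, and both probe sets were dim, with mean levels of 2.88 and 3.30. All members and all pairs of genotypes were searched for such opposite moves, and the share among all genes was not taken. Brighter probe sets that name Rps16 beside other genes were not read for this.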

How the results depend on the processing

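Over 34 settings, 476 of 501 counts and medians of the members stayed within 1.5 times (counts) or 1 SD (medians) of the reported value. Many of these counts belong to comparisons and directions in which no member was called. Of 1787 recomputed changes of named genes, 1728 stayed called or stayed uncalled, and most were uncalled from the start. Among the rest 46 lost their call, 12 gained one, and 1 lost its call and changed sign. These losses fall on the called changes alone, so the totals do not measure how often a call held. Uncalled changes differed in sign 55 times. Without the replicate block WT gave 1 member higher and 11 lower, and with the culture as a random replicate block 1 and 12. WT arrays alone with the replicate block gave 1 and 9. These fits left the member counts of the other comparisons within cultures as they were.

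Centring arrays on their median gave 11 members lower in WT than Suv39h1- under ADR (median -0.15), a Suv39h1- median of 0.0792 and a difference between responses with a median of -0.14. Repeated quantile normalization gave 7 lower in WT, all among the 11, and 0 in Suv39h1ER with 4OHT. The mean of all probe sets gave 1 lower in native WT (Rpl27a), 2 lower under ADR against Suv39h1-, and Rps18 at 0.000542. Without _x_at and _s_at probe sets the latter count was 2, and with alike lymphomas counted once 0. Array weights gave 2 higher in WT, adding Rpl12. The fibroblast covariate gave 0 higher and 0 lower, at the low end of its range. An intensity trend, chosen after seeing the data, gave 2 lower with 4OHT, adding Rpl11. The causes were not tested.

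Leaving out single replicates, WT gave 1 to 2 higher (2 without 3594, 5560 or 7050) and 9 to 12 lower. Native WT against Suv39h1- gave 0 to 1 lower (1 without 5766 or 1032), ADR WT against Suv39h1- 0 to 2 (0 without 7890 or 9250, 2 without 1032), and Suv39h1ER with 4OHT 0 to 1 (0 without any of the 3 cultures). Dim single-gene probe sets limit 14 members.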

Other observations

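Probe sets that name a ribosomal protein together with other genes were left out of the members. Of 110 such probe sets 29 were lower and 1 was higher in WT under ADR, with a median change of -0.07, in a fit over all 45101 probe sets, of which 5424 were lower and 5165 higher. In Suv39h1- lymphomas none was called. Rps25, uncalled on its own probe set at -0.003, was at -0.13 (adjusted p = 0.0180, limma) on a brighter probe set of several genes, and both such probe sets of Rps2 were lower.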
